A study of Mus musculus with 5 samples.

Results

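Keratins and the proteins of the epidermal barrier are products of epithelia, and the RNA examined here was labelled as sciatic nerve. The genes were taken by name: keratins with a numbered symbol, keratin-associated proteins, desmogleins 1 to 4, desmocollins 1 to 3, the small proline-rich (Sprr) and late cornified envelope (Lce) families, and Trp63, Sfn, Dsp, Perp, Lor, Flg, Ivl, Evpl, Ppl and Pkp1. Of the 10361 probe sets on the array table, 75 carried 1 such symbol each and stood for 75 genes. RefSeq (GRCm38.p6) lists 163 mouse genes with matching names, so 88 of them, Flg, Ppl and Krt19 among them, are not analysed here. Another 7 probe sets that share a matching symbol with other genes were left out. By role the 75 genes comprised 5 of the basal layer of the epidermis, 9 of the layers above it, 25 of the cornified envelope, 2 desmosomal genes shared by many epithelia, 26 of hair and nail, 2 keratins of simple epithelia and 6 other keratins.

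The series set Ebf2-/- (KO) against Ebf2+/+ wild-type (WT) mouse pups, all on a C57Bl6N background, from crosses between heterozygous parents. Sciatic nerves were taken at 2 days of age and pooled by genotype, 12 nerves to a pool, and each pool was hybridised to 1 array. There were 3 WT pools (numbered 1, 9 and 11) and 2 KO pools (2 and 4), and the labels do not say which part of Ebf2 the allele lacks, nor how many animals or litters lie behind a pool. The p-values therefore reflect only how far these arrays scatter, and some of that scatter may be technical. In pooled tissue, fewer cells of a type and less RNA per cell cannot be told apart. All levels are log2 expression values, and KO minus WT differences are log2 fold changes with the moderated standard error (SE) of limma, n = 3 WT and 2 KO pools. A level of 1 probe set can be compared between pools but not with the level of another probe set.

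Stratified epithelium renews itself from a basal layer, which makes the keratin pair of Krt5 and Krt14 under the transcription factor p63, the product of Trp63. Cells that leave this layer switch to Krt1 and Krt10 and then build the cornified envelope from loricrin (Lor), involucrin, and Sprr and Lce proteins, while desmosomes hold the cells together. Hair follicles use keratins of their own for the root sheath and the shaft, and simple epithelia use Krt8 and Krt18.

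Across the whole table the Ebf2 probe set stood on the side of its label on all 5 arrays, with 11.55, 11.14 and 11.40 across WT pools 1, 9 and 11 and 9.25 and 8.74 across KO pools 2 and 4 (log2 fold change -2.37, SE 0.19, adjusted p = 4.97e-07). Schwann cell genes, 14 measured of 20, had mean levels from 10.60 (KO pool 4) to 11.82 (WT pool 9). WT pools 9 and 11 held the 2 highest values in 37 of the 75 genes (49.3%), against 16.2% of all probe sets, so each genotype difference of these genes is also given against WT pool 1 alone. Dim probe sets as a class read slightly lower in WT pool 1. Over the 2591 probe sets with a mean of at most 7.66, a class that held 53 of the 75 genes, the median deviation from a probe set's own mean was -0.11 for WT pool 1, 0.04 for both WT pools 9 and 11, -0.03 for KO pool 2 and 0.06 for KO pool 4.

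The stretches of 250 bases upstream of RefSeq transcription starts are shown for a gene of each main role: Krt5 (basal), Krt10 (suprabasal), Lor and Lce1c (cornified envelope), Krt25 (hair root sheath) and Krt8 (simple epithelium). They are from GRCm38.p6, 5′ to 3′ on the gene's strand: Krt5 at chr15:101712906-101713155 (minus), Krt10 at chr11:99389365-99389614 (minus), Lor at chr3:92083143-92083392 (minus), Lce1c at chr3:92678997-92679246 (plus), Krt25 at chr11:99322952-99323201 (minus) and Krt8 at chr15:102004343-102004592 (minus). Capitals mark the letters TATAAA (the TATA box) and TGANTCA (the element bound by AP-1 factors), both searched on both strands.
Krt5: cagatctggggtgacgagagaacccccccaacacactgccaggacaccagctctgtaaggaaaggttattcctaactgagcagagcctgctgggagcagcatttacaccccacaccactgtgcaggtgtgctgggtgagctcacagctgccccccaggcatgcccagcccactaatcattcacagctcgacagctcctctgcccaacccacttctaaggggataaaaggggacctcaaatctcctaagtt
Krt10: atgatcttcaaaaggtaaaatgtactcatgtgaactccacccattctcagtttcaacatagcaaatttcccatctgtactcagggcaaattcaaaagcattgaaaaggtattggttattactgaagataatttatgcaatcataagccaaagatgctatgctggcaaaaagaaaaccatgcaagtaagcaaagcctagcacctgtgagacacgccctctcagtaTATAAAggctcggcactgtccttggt
Lor: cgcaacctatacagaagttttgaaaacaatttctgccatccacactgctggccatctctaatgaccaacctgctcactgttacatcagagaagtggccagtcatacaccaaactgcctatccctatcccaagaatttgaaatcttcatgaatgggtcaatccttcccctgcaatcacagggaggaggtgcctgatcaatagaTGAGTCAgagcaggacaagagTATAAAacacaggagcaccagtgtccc
Lce1c: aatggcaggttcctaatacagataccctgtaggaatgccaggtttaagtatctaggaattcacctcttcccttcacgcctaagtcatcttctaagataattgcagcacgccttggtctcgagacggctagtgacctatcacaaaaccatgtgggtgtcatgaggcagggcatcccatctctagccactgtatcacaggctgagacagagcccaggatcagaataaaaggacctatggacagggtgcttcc
Krt25: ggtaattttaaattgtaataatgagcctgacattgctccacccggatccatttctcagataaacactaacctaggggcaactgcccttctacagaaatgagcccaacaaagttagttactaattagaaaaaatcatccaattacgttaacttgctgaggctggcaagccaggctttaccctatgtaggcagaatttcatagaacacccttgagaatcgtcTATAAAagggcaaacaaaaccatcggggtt
Krt8: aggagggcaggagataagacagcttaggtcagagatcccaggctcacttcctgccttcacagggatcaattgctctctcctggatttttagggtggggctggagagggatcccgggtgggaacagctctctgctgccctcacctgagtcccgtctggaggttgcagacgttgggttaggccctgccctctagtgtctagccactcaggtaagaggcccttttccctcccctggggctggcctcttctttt
TATAAA began 26 bases before the start of Krt10, 27 before that of Lor and 30 before that of Krt25, and Lor also held TGAGTCA from 48 bases before its start. Of the 58 genes with such a window, 32 (55.2%) held TATAAA, against 12.4% of all 32851 windows of the RefSeq table. By role this was 19 of 23 windows of hair and nail genes and 11 of 23 of the cornified envelope, while the 2 windows of the basal layer and the 2 of simple epithelium held 0. The 2 basal windows are those of Krt5 and Krt14, and the Krt14 window starts inside the gene, so their count says little of the layer. TGANTCA lay in 11 of the 58 windows (19.0%), 8 of them of cornified envelope genes, against 6.75% of all windows. Several windows of the RefSeq table can belong to 1 gene, and the matches describe letters only, not binding.

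Krt1, Krt10 and Lor had some of the widest spreads of the whole table, and the spread lay between wild-type pools. Krt1, the type II keratin of the layers above the basal one, read 7.22, 11.87 and 10.48 across WT pools 1, 9 and 11 and 7.21 and 7.66 across KO pools 2 and 4. Its range of 4.67 was the widest of all 10361 probe sets. Krt10, its type I partner, read 7.89, 11.76 and 10.43 in the WT pools and 7.88 and 8.33 in the KO pools. Lor, for the most abundant protein of the cornified envelope, read 7.08, 11.19 and 8.84 in WT and 6.84 and 7.44 in KO. For all 3 genes, WT pools 9 and 11 were far above the other 3 pools, and WT pool 1 lay between the 2 KO pools. Relative to WT pool 1, WT pool 9 was 25.2-fold higher in Krt1, 14.7-fold in Krt10 and 17.3-fold in Lor, and WT pool 11 was 9.58-fold, 5.84-fold and 3.40-fold higher. The values of Krt1 and Lor in WT pool 1 lie below the 25th percentile of that array (7.58), where no detection call exists, so these ratios describe array values and may understate a difference in RNA.

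**Figure D1:**
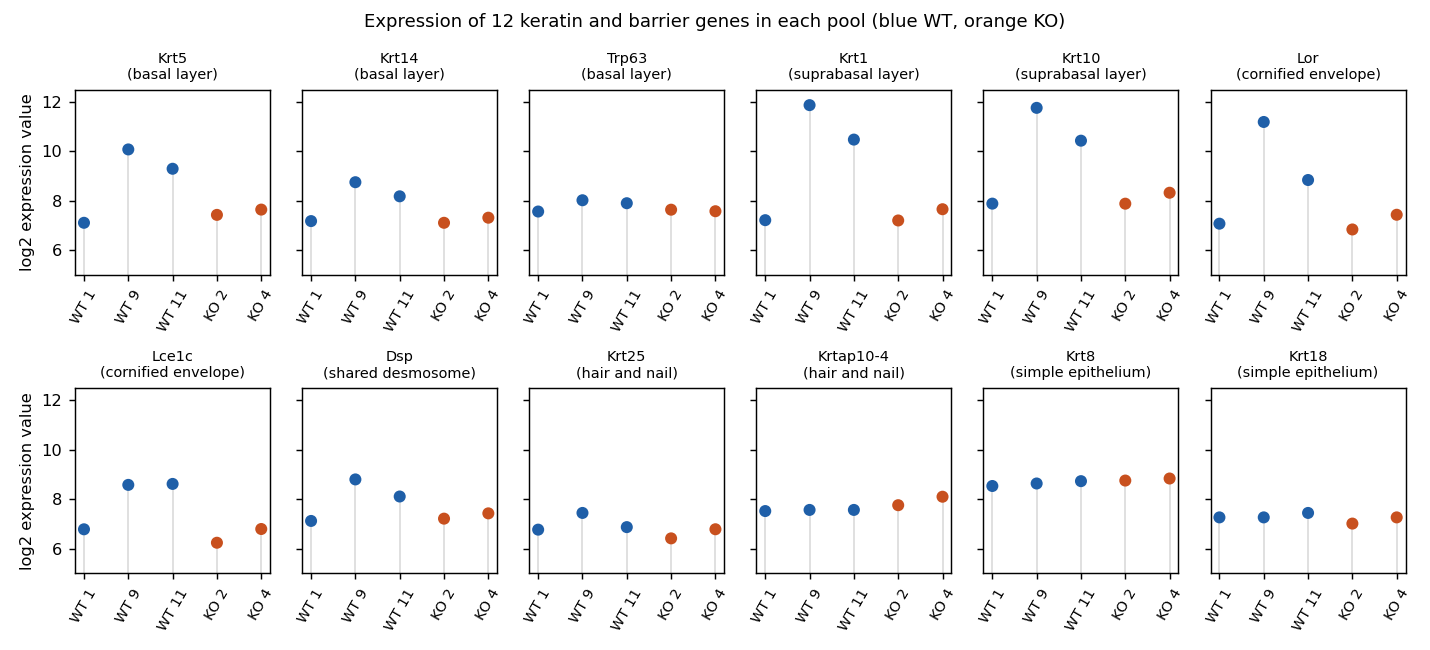
Log2 expression value (vertical axis) of 12 keratin and barrier genes in each of the 5 pools (horizontal axis; blue WT, orange KO; 1 point is 1 array). Krt1, Krt10, Lor and Krt5 stand high in WT pools 9 and 11 alone, with Krt1 at 11.87 and 10.48 there against 7.21 to 7.66 elsewhere, while Krt8 and Krt18 span at most 0.43.

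In 4 of the 5 basal genes WT pools 9 and 11 again held the 2 highest values, with smaller steps. Krt5, the type II keratin of basal cells, read 7.11, 10.08 and 9.30 across WT pools 1, 9 and 11 and 7.43 and 7.65 across KO pools 2 and 4, a range of 2.97. Krt14, its partner, read 7.18, 8.75 and 8.18 in WT and 7.11 and 7.32 in KO. Krt15, a basal keratin also used as a marker of hair follicle stem cells, read 7.25, 8.32 and 7.88 in WT and 7.37 and 7.52 in KO. In these 3 keratins the other 3 pools lay close together. Trp63 itself read 7.57, 8.02 and 7.90 in WT and 7.64 and 7.58 in KO. Its range of 0.456 was close to the median of all probe sets (0.441). Dsc3, the desmocollin of basal cells, read 6.21, 7.05 and 6.48 in WT and 6.12 and 6.48 in KO, so that WT pool 11 and KO pool 4 had the same value. WT pool 9 was the highest for all 5 basal genes, and its excess over WT pool 1 ran from 0.46 (Trp63) to 2.97 (Krt5) with a median of 1.08.

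The remaining suprabasal genes were less uniform. Dsc1, the desmocollin of the upper layers, read 6.08, 7.44 and 6.56 across WT pools 1, 9 and 11 and 5.91 and 6.19 across KO pools 2 and 4. Sfn, which encodes the epithelial 14-3-3 protein sigma, read 7.90, 8.51 and 8.64 in WT and 7.83 and 8.13 in KO. Pkp1, for the desmosomal plaque protein plakophilin 1, read 7.12, 7.91 and 7.77 in WT and 7.11 and 7.41 in KO. In these 3 genes, as in Krt1 and Krt10, WT pools 9 and 11 had the 2 highest values. Among the 4 others, Krt77, Krt80, Dsg1b and Dsg1c, this order did not occur, and their ranges were 0.47 to 0.54. Dsg1c had the narrowest range of the suprabasal genes, with 5.22, 5.43 and 5.14 in WT and 4.97 and 5.14 in KO. The desmogleins 1 are near-identical copies, so their probe sets may share signal.

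Of the 25 cornified envelope genes, 24 lie on chromosome 3 in RefSeq, and within that cluster the families differed in spread. The Lce1 family held the largest steps after Lor. Lce1c read 6.78, 8.58 and 8.62 across WT pools 1, 9 and 11 and 6.24 and 6.79 across KO pools 2 and 4. Lce1a1 read 6.40, 8.09 and 8.40 in WT and 6.36 and 6.55 in KO, and Lce1e read 6.57, 8.25 and 8.05 in WT and 6.52 and 6.98 in KO. In 10 of the 11 Lce1 genes WT pools 9 and 11 held the 2 highest values, and 6 had a range above 1. This order held in 0 of 3 Lce3 genes, 1 of 2 Sprr1 genes and 1 of 5 Sprr2 genes, whose median ranges were 0.44, 0.83 and 0.41 against 1.01 in Lce1. Sprr2b, with the narrowest range of the role, read 5.04, 5.35 and 5.32 in WT and 5.18 and 5.32 in KO. Lce1 genes are members of 1 family, and whether their probe sets share signal was not tested. Their upstream windows, aligned in 55 pairs, were 50.5% to 85.6% identical (median 66.9%), which says nothing of the transcribed sequence.

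WT pools 9 and 11 also differed from each other, and by gene. Lor was 2.35 higher in WT pool 9 than in WT pool 11 on the log2 scale, Krt1 1.39 and Krt10 1.33 higher, and Krt5 0.78 higher. In the Lce1 family the same difference ran from -0.31 (Lce1a1) to 0.42 (Lce1d), with 8 of 11 genes higher in WT pool 9. Perp and Sfn were slightly higher in WT pool 11, by 0.12 each. With 1 array per pool, these differences have no replicate check. In Ivl and Evpl WT pools 9 and 11 again held the 2 highest values. Their ranges were 0.425 and 0.522, against a median of 0.441 over all probe sets. Ivl, for involucrin, a precursor of the envelope, read 6.81, 7.23 and 7.03 in WT and 6.88 and 6.93 in KO. Evpl, for the plakin envoplakin, read 7.94, 8.36 and 8.47 in WT and 8.12 and 8.30 in KO.

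Desmosomal genes used by many epithelia resembled the basal keratins. Dsp, for desmoplakin, which ties keratin filaments to the desmosome, read 7.12, 8.80 and 8.11 across WT pools 1, 9 and 11 and 7.21 and 7.43 across KO pools 2 and 4. Perp, a p63 target of the desmosome, read 7.69, 9.28 and 9.40 in WT and 8.21 and 8.42 in KO. In both genes the KO pools lay between WT pool 1 and the other WT pools. Perp was the gene in which the KO pools lay furthest above WT pool 1 in the mean, by 0.63.

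Hair and nail genes varied little between pools. Their median range was 0.37, against 1.08 for the basal, 0.80 for the suprabasal and 0.79 for the cornified envelope genes, and against 0.44 for all probe sets. Krt25, a keratin of the inner root sheath, had the widest range of the role and read 6.77, 7.44 and 6.87 across WT pools 1, 9 and 11 and 6.41 and 6.78 across KO pools 2 and 4. Krt73, another inner root sheath keratin, read 7.43, 8.04 and 7.60 in WT and 7.39 and 7.41 in KO. In all 5 keratins of the root sheath (Krt25, Krt27, Krt71, Krt73 and Krt75, grouped after their values were seen) WT pool 9 was highest and WT pool 11 next, though their excess over WT pool 1 was at most 0.68 and 0.26. This order occurred in 0 of the 4 shaft and nail keratins (Krt32, Krt36, Krt84 and Krt86) and in 2 of the 17 keratin-associated proteins.

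Keratin-associated proteins crosslink the keratins of the hair shaft. Krt86, a shaft keratin, read 5.83, 6.07 and 6.04 in WT and 6.08 and 6.58 in KO. Krtap10-4 read 7.52, 7.57 and 7.57 in WT and 7.76 and 8.10 in KO, and Krtap19-5, the narrowest of the role, read 4.94, 4.97 and 4.97 in WT and 4.99 and 4.75 in KO. KO pool 4 was the highest pool in 12 of the 26 hair and nail genes, 9 of them keratin-associated proteins, and WT pool 1 the lowest in 20. Over all probe sets KO pool 4 is the highest in 29.1% and WT pool 1 the lowest in 17.9%, the latter rising to 43.3% in dim probe sets. Keratin-associated proteins come in close copies, and their probe sets may share signal. The median deviations of the role, -0.18 for WT pool 1, 0.04 for WT pool 9, 0.05 for WT pool 11, -0.05 for KO pool 2 and 0.10 for KO pool 4, were within 0.08 of those of dim probe sets in general, a class to which 20 of the 26 belong. At these values the table gives no detection call, so it does not say whether a hair gene was expressed at all.

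**Figure D2:**
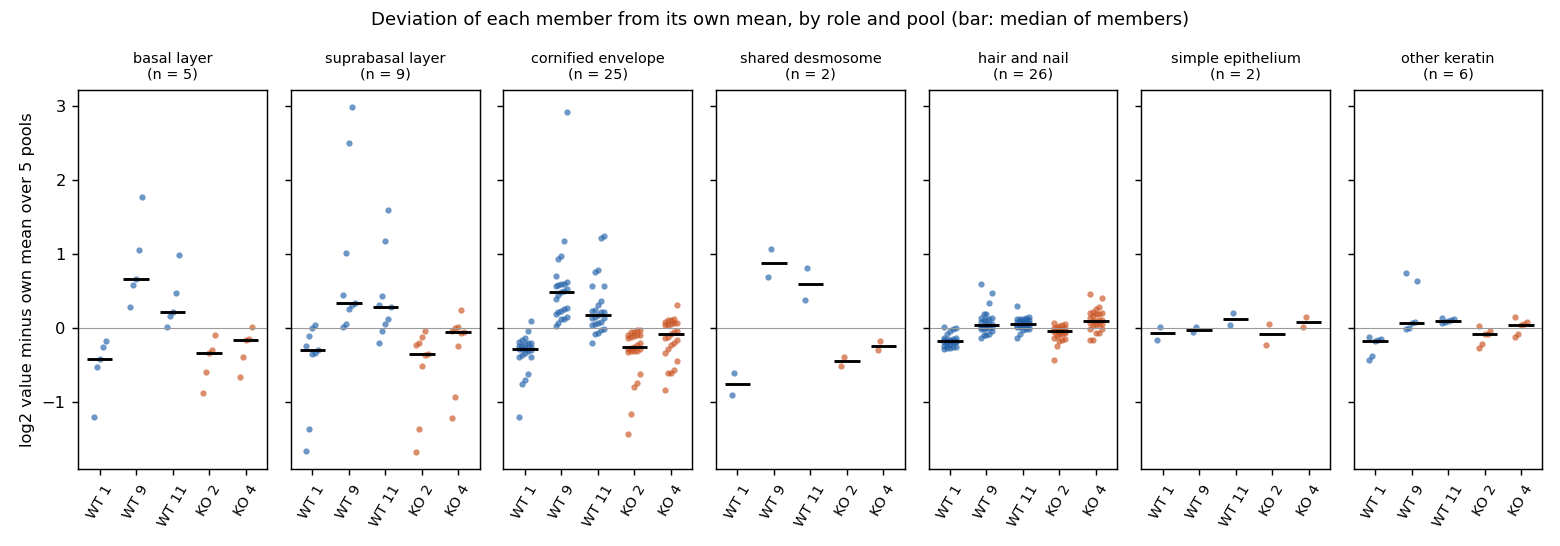
Log2 value of each gene minus its own mean over the 5 pools (vertical axis), by pool (horizontal axis; blue WT, orange KO) and role; each point is 1 gene and each bar the median of the role. The basal, suprabasal, cornified envelope and shared desmosome panels are raised in WT pools 9 and 11, with medians of 0.66, 0.33, 0.49 and 0.87 in WT pool 9, while hair and nail (0.04) and simple epithelium (-0.02) are near 0 there.

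Simple epithelial and other keratins were mostly flat. Krt8 read 8.53, 8.63 and 8.73 across WT pools 1, 9 and 11 and 8.75 and 8.84 across KO pools 2 and 4, and its partner Krt18 read 7.26, 7.26 and 7.44 in WT and 7.01 and 7.26 in KO. Neither followed the order of the epidermal keratins. Krt17, a keratin of skin appendages and wounds, did so, with 6.80, 7.98 and 7.34 in WT and 6.96 and 7.11 in KO. Krt79, known from the upper hair follicle, read 7.25, 8.26 and 7.69 in WT and 7.42 and 7.54 in KO. Of the 4 other keratins of this group, Krt12 had a range of 0.27. Krt24 read 5.99, 6.14 and 6.29 in WT and 6.18 and 6.20 in KO, and Krt222 read 6.71, 6.95 and 6.99 in WT and 6.79 and 6.92 in KO. Krt90 read 7.30, 7.53 and 7.56 in WT and 7.43 and 7.55 in KO. The KO pools lay inside the range of the WT pools in Krt24, Krt222 and Krt90.

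Across all 75 genes, WT pool 9 was the highest pool in 42, KO pool 4 in 16 and WT pool 11 in 15, and WT pool 1 was the lowest in 46. These pools are the highest in 26.8%, 29.1% and 12.2% of all probe sets, and WT pool 1 is the lowest in 17.9% of them and in 43.3% of the dim ones. A range above 1 occurred in 19 genes (25.3%), against 8.17% of all probe sets. In WT pool 1 and the KO pools together, without WT pools 9 and 11, the widest range of any of the 75 genes was 0.74 (Krt86) and the median range 0.29, the same as the 0.29 of the whole table. The 2 pools were left out because these genes read high in them, which narrows the ranges by construction. The match with the whole table is therefore no separate result. KO pool 4 read higher than KO pool 2 in 67 of the 75, by a median of 0.19, while this median was 0.00 over the whole table and 0.12 over dim probe sets. KO pool 4 exceeded KO pool 2 by 0.46 in Krt1, 0.44 in Krt10 and 0.60 in Lor.

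Between the genotypes, no keratin or barrier gene passed the test. Of the 75 genes 0 were called by limma at adjusted p below 0.05, against 70 of 10361 probe sets (0.676%), and 0 were called without moderation of the variance. At unadjusted p below 0.05 there were 16 (21.3%), 15 of them lower in KO, against 14.3% of all probe sets. The median log2 fold change was -0.11 over the 75 genes, with 49 negative, and -0.0017 over all probe sets. It was -0.37 for the basal, -0.34 for the suprabasal, -0.30 for the cornified envelope, -0.58 for the shared desmosome, 0.07 for hair and nail, -0.01 for simple epithelium and -0.0035 for the other keratins. Against WT pool 1 alone the median turned to 0.18, with 58 of the 75 genes higher in KO, and the values ran from -0.27 (Lce1c) to 0.63 (Perp). The medians by role, in the order above, were then 0.09, 0.11, 0.10, 0.41, 0.23, 0.07 and 0.20. Over all probe sets the median against WT pool 1 alone was 0.0055. Dim probe sets, 53 of the 75 genes among them, read above WT pool 1 by medians of 0.05 in KO pool 2 and 0.19 in KO pool 4. The part of this shift in the 0.18 was not tested. With 1 pool left out, the median over the 75 genes was -0.20 without WT pool 1, -0.01 without WT pool 9, -0.12 without WT pool 11, -0.05 without KO pool 2 and -0.19 without KO pool 4. Without WT pool 9 it was -0.125 for the basal, -0.185 for the suprabasal and -0.12 for the cornified envelope genes.

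Of the 75 genes Krt1 had the largest difference between the genotype means, with a WT mean of 9.86 ± 2.39 (SD, n = 3) and a KO mean of 7.43 ± 0.32 (SD, n = 2), which was 5.36-fold lower (log2 fold change -2.42, SE 0.70, adjusted p = 0.109). Krt10 went from 10.03 ± 1.97 to 8.11 ± 0.31 (log2 fold change -1.92, SE 0.59, adjusted p = 0.133), and Lor from 9.04 ± 2.06 to 7.14 ± 0.42 (-1.90, SE 0.62, adjusted p = 0.152). For all 3 the SD of the WT pools was about as large as the difference, and the WT and KO pools overlapped. Against WT pool 1 alone the differences were 0.22 for Krt1, 0.22 for Krt10 and 0.06 for Lor. Lce1c came closest to the threshold (log2 fold change -1.48, SE 0.35, adjusted p = 0.0541, and -0.27 against WT pool 1 alone). Without WT pool 11 the fit called 5 of the 75 genes, against 105 of all 10361 probe sets. The 5 were Krt1 (-2.11, adjusted p = 4.94e-13), Lor (-1.99), Krt10 (-1.72), Lce1c (-1.16) and Krt5 (-1.06). This fit had an estimated prior of infinite degrees of freedom, so that 1 common variance was used for all probe sets. No other omitted pool gave a call among the 75. Without WT pool 9 the log2 fold change was -1.41 for Krt1, -1.05 for Krt10, -0.82 for Lor, -1.18 for Lce1c and -0.67 for Krt5 (adjusted p = 0.831 for each). Without WT pool 1 it was -3.74 for Krt1, -2.99 for Krt10, -2.88 for Lor, -2.08 for Lce1c and -2.15 for Krt5 (adjusted p from 0.0692 to 0.173).

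The genotype differences of the other genes were smaller. In the basal layer they were -1.29 for Krt5 (SE 0.47, adjusted p = 0.201), -0.82 for Krt14 (SE 0.28, adjusted p = 0.171), -0.37 for Krt15, -0.28 for Dsc3 and -0.22 for Trp63. Against WT pool 1 alone they were 0.43, 0.03, 0.20, 0.09 and 0.04, all above 0. In the suprabasal layer the differences were -0.64 for Dsc1, -0.37 for Sfn, -0.34 for Pkp1 and -0.21 for Dsg1c, and -0.03, 0.08, 0.14 and -0.16 against WT pool 1 alone. Dsp was at -0.69 (SE 0.29, adjusted p = 0.282) and Perp at -0.47, against 0.20 and 0.63 with WT pool 1 alone. Of the 49 negative differences, 32 were positive against WT pool 1. WT pools 9 and 11 were set aside there because they read high in these genes. Such a choice raises the differences by construction, so the changes of sign are no separate result.

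In the cornified envelope Lce1a1 was at -1.17 (SE 0.35, adjusted p = 0.116), Lce1e at -0.87, Ivl at -0.12, Evpl at -0.05 and Sprr2b at 0.01. Against WT pool 1 alone they were at 0.05, 0.18, 0.10, 0.26 and 0.20. Among hair genes Krt25 was at -0.43 (SE 0.20, adjusted p = 0.340), Krt73 at -0.29, Krtap19-5 at -0.09, Krt86 at 0.35 and Krtap10-4 at 0.38 (SE 0.17, adjusted p = 0.316), and against WT pool 1 alone at -0.17, -0.03, -0.07, 0.50 and 0.41. Krt8 was at 0.16 and Krt18 at -0.19, Krt17 at -0.34, Krt79 at -0.25, Krt222 at -0.03, Krt90 at 0.03 and Krt24 at 0.05. In the same order, WT pool 1 alone gave 0.26, -0.13, 0.24, 0.23, 0.14, 0.19 and 0.20. Both KO pools lay below all WT pools in 2 of the 75 genes, Lce1i and Krt73, against 13.3% of all probe sets. They lay above all WT pools in 3, Krt8, Krt86 and Krtap10-4, against 17.5% of all probe sets.

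**Figure D3:**
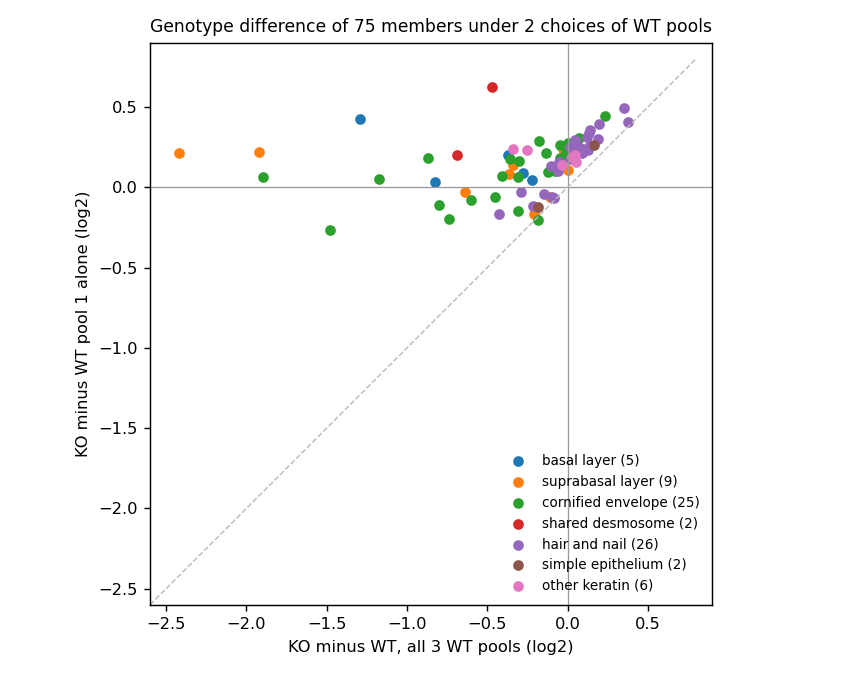
Difference of the mean log2 value between KO and WT for each of the 75 genes, with all 3 WT pools (horizontal axis) and with WT pool 1 alone (vertical axis); colours give the role, each point is 1 gene and the dashed line marks equal values. Points from -2.42 (Krt1) on the horizontal axis lie between -0.27 and 0.63 on the vertical axis.

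Many other genes of the epidermis also read highest in WT pools 9 and 11. Of 81 such genes, listed for their known function but with earlier results of these data known, 56 were measured. These pools held the 2 highest values in 35 of them, not in the other 21, against 16.2% of all probe sets. The pair of pools was already seen to be high in the keratins, so the 35 are no independent check. The 3 with the widest range were Hrnr, Serpinb5 and Stfa3. Hrnr, for the barrier protein hornerin, read 7.30, 11.26 and 9.22 across WT pools 1, 9 and 11 and 7.33 and 7.65 across KO pools 2 and 4, and its range was the 4th widest of the table. Serpinb5, for the epithelial serpin maspin, read 5.28, 8.29 and 7.91 in WT and 5.31 and 5.62 in KO. Stfa3, of the stefin A group of protease inhibitors, read 6.01, 8.84 and 8.81 in WT and 6.68 and 6.42 in KO. In all 3 the KO pools and WT pool 1 lay well below WT pools 9 and 11. Members that went otherwise, named after their values were seen, include Cldn1, for the tight junction protein claudin 1, with 12.60, 11.85 and 12.29 in WT and 12.86 and 12.91 in KO. Klf5, for an epithelial transcription factor, read 11.01, 10.61 and 11.01 in WT and 11.05 and 11.16 in KO. In both, WT pool 9 was the lowest pool and the KO pools the highest. None of the 56 was called by limma (lowest adjusted p = 0.0946, 41 lower in KO), against 0.676% of all probe sets. At unadjusted p below 0.05 there were 13, against 14.3% of all probe sets, and the median log2 fold change was -0.12.

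Markers of other cell types were set beside them, and their part in the result was not tested. Skeletal muscle genes, 33 measured of 34, had median deviations of -0.77, 0.66 and 0.48 across WT pools 1, 9 and 11 and -0.26 and -0.03 across KO pools 2 and 4, and WT pools 9 and 11 held the 2 highest values in 25. The mean of their log2 values was 9.27, 10.58 and 10.43 in WT and 9.71 and 9.93 in KO, so both KO pools stood above WT pool 1. Among the 75 keratin and barrier genes, KO pool 2 read above WT pool 1 in 48 and KO pool 4 in 65. The 48 included Krt5, Dsp and Perp but not Krt1 or Krt10. The median excess over WT pool 1 was 0.09 in KO pool 2 and 0.27 in KO pool 4. It was 0.005 and 0.018 over all probe sets, and 0.05 and 0.19 over dim ones. The part of the dim shift in these counts was not tested. Genes of sebaceous gland and fat, 9 of 15 measured, had median deviations of -0.16, 0.22 and 0.10 in WT and -0.18 and -0.06 in KO, and 6 of the 9 had WT pools 9 and 11 highest. The 6 were Adipoq, Plin1, Plin4, Cidea, Cidec and Retn, and the others were Mgst1, Lipe and Pck1. Mgst1 was lowest in WT pool 9 (9.51) and highest in KO pool 2 (9.88). The list does not tell the gland from fat. By limma 0 genes of either list were called. At unadjusted p below 0.05 there were 4 of the 33 and 0 of the 9, against 14.3% of all probe sets. In the epidermal genes and in both of these lists the medians were highest in WT pool 9 and lowest in WT pool 1 or KO pool 2.

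In their medians, genes of pigment cells and hair follicle regulators did not share the pattern to this degree. The 10 measured of 12 melanocyte genes had median deviations from -0.05 (WT pool 1) to 0.05 (WT pool 9), and WT pools 9 and 11 were highest in 2 of them. WT pool 9 alone was highest in 3 (Tyrp1, Dct and Mitf). Tyrp1, the widest, read 7.48, 8.61 and 7.30 in WT and 7.48 and 7.01 in KO. Dct read 6.48, 7.38 and 7.06 in WT and 7.06 in both KO pools. The 13 measured of 16 regulators of the hair follicle ran from -0.18 (KO pool 2) to 0.11 (WT pool 9), with 2 in that order. The 6 measured of 11 genes of mesothelium and simple epithelium ran from -0.14 (WT pool 1) to 0.10 (WT pool 9), and the 4 measured of 7 genes of epidermal immune cells from -0.21 (WT pool 1) to 0.11 (KO pool 4). Some of these lists share genes with the other epidermal genes. The shared ones are Epcam, Cldn4 and Bnc1 (mesothelium and simple epithelium), Epcam again (immune cells) and S100a3 (follicle regulators). Of the mesothelium and simple epithelium genes, Cldn4 and Bnc1 were those with WT pools 9 and 11 highest. By limma 0 genes of these 4 lists were called. At unadjusted p below 0.05 there were 1 of the follicle regulators and 0 of the others, against 14.3% of all probe sets. Of the 14 Schwann cell genes 7 were called lower in KO (Pmp2, Cldn19, Mag, Egr2, Gldn, Ncmap and Fa2h), against 0.676% of all probe sets called in either direction. When each array was centred on its median 0 of the 14 were called, but the calls over all probe sets then also fell from 70 to 1. Their median deviations were 0.12 for WT pool 1, 0.55 for WT pool 9, 0.27 for WT pool 11, -0.26 for KO pool 2 and -0.62 for KO pool 4. WT pools 9 and 11 held the 2 highest values in 12 of the 14 and WT pool 9 the highest in 13, a larger share than in the epidermal genes, and the part of this in the epidermal result was not tested. The median of the Schwann cell genes was higher in WT pool 1 than in either KO pool.

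**Figure D4:**
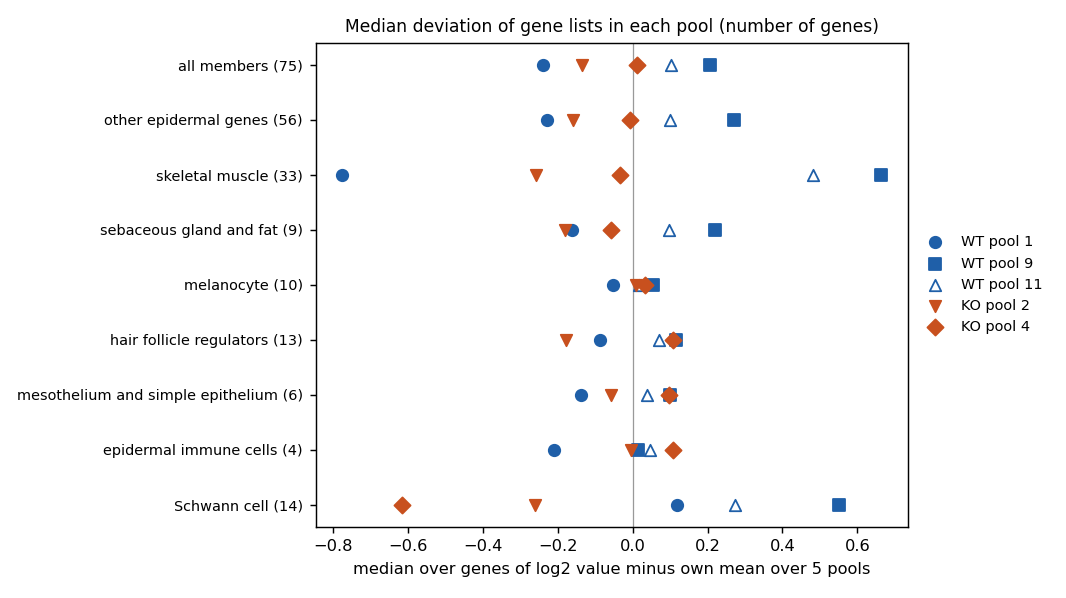
Median over genes of the log2 value minus the gene's own mean over the 5 pools (horizontal axis) for the 75 keratin and barrier genes and 8 other gene lists (vertical axis, number of measured genes in brackets); each symbol is 1 pool, blue WT and orange KO. WT pool 1 lies at -0.24 for the 75 genes, -0.23 for other epidermal genes and -0.77 for skeletal muscle, but at 0.12 for Schwann cell genes.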

How the data were processed

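RNA of 5 pools of sciatic nerves was measured on Affymetrix arrays, per the labels' protocols. The authors deposited log2 values after RMA, as the submitters' processing notes name it. Its version and settings and the array's genome build are not stated in the sources used here. All probe sets had a gap of 0.175 or more between their smallest value and the next to largest, so the variance shared between probe sets comes from a table without flat probe sets. Names came from the platform annotation, which gave 9411 of 10361 probe sets 1 symbol, and all 75 genes matched RefSeq by gene identifier. KO and WT pools were compared with limma 3.58.1 in R 4.3.3 (lmFit and eBayes, no covariates, two-sided, Benjamini-Hochberg over all 10361 probe sets, called at adjusted p below 0.05), after it had been tested on simulated data. The number of arrays limits the precision. Values in every pool are given for called genes, the widest and the narrowest genes of each role and canonical genes, 32 in all. Genes, lists and rules were chosen with earlier results of these data known. Alternatives were median centring, quantile normalisation, a filter on low values, a robust or no variance prior, and pools left out. Sets of probes can hybridise to close copies of a gene.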

Additional observations from a re-analysis of the deposited data

How the results depend on the processing

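Of the 75 genes 0 were called under median centring, quantile normalisation, a robust prior, no moderation and WT pool 1 alone, 0 of the 22 that the filter on low values kept (Lce1c was not among them), and 0 to 5 with 1 pool left out. Over all probe sets the count of 70 became 1 under median centring, 1 under quantile normalisation (Ebf2 in both), 148 under the robust prior, 0 without moderation, 0 against WT pool 1 alone, and 0 to 105 with 1 pool left out. Against WT pool 1 alone the median log2 fold change became 0.18 over the 75 genes, 0.091 for basal, 0.11 for suprabasal, 0.099 for cornified envelope, 0.41 for shared desmosome, 0.23 for hair and nail and 0.20 for other keratins. In that comparison 19 of 32 genes changed sign: Dsc3 0.091, Krt14 0.034, Krt15 0.20, Krt5 0.43, Trp63 0.043, Evpl 0.26, Ivl 0.096, Lce1a1 0.053, Lce1e 0.18, Lor 0.064, Krt17 0.24, Krt222 0.14, Krt79 0.23, Dsp 0.20, Perp 0.63, Krt1 0.22, Krt10 0.22, Pkp1 0.14 and Sfn 0.083. The filter moved the median log2 fold change to -0.80 for the cornified envelope and 0.16 for simple epithelium, and the median deviations to 0.57 (WT pool 11) and -0.62 (KO pool 2) for the former and 0.056 (KO pool 2) for the latter, with fewer genes in each. Median centring moved the deviation in KO pool 4 to 0.23 for hair and nail and 0.20 for simple epithelium, and gave 0.0097 for Evpl and 0.026 for Krt222. It also raised KO pool 4 from 0.01 to 0.14 over the 75 genes, above WT pool 11 (0.12) but below WT pool 9 (0.17). For the cornified envelope, KO pool 4 went from -0.09 to 0.04. The array median of KO pool 4 was 8.93, and those of the other pools were 9.04 to 9.11. Quantile normalisation gave 0.021 for Evpl and -0.0029 for Sprr2b. With 1 pool left out, Evpl ran from -0.21 to 0.055, Sprr2b from -0.087 to 0.077, Krtap19-5 from -0.21 to 0.031, Krt222 from -0.12 to 0.033, Krt24 from -0.028 to 0.13, Krt79 from -0.49 to 0.01 and Krt90 from -0.057 to 0.084. The cause of these changes was not tested beyond what leaving out pools or genes does by construction. The fit against WT pool 1 alone has 1 residual degree of freedom, and its lone WT pool is assumed to vary as the KO pools do. No paired analysis was possible because the WT pools (1, 9 and 11) and the KO pools (2 and 4) share no number.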
